A study of Mus musculus with 6 samples.

Results

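Integrins are receptors that span the cell membrane as pairs of 1 alpha and 1 beta subunit, and laminins are the large secreted trimers of alpha, beta and gamma chains that many of them bind in basement membranes. The genes described here are the 33 protein-coding rows, of 25416 rows in all, whose symbol is that of an integrin alpha subunit (16 genes), an integrin beta subunit (8 genes) or a laminin chain (9 genes). No such row was found for Itga4, Itga8, Itgb8, Lama1 or Lama4, so the sums and shares below leave these genes out. The rule uses symbols alone, but it was set when earlier results of these data were known. The samples are 6 RNA-seq libraries of AML12, an established mouse hepatocyte line from an animal with a transgene for human TGF alpha, which both groups therefore carry. The siNC group (n = 3) received a scrambled RNA and the siSetdb1 group (n = 3) an siRNA against Setdb1, both at an amount that the labels write as 50 nm. Setdb1 is the gene of a methyltransferase that adds repressive marks to histone H3, and transfection lasted 72 h in both groups. Of the 33 genes, 22 had at least 0.5 FPKM (reads scaled to exon length and to library depth) in 3 or more libraries and were tested, and 11 were below this limit.

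In the setting of an epithelium, integrin alpha 6 paired with beta 4 anchors cells to laminin through hemidesmosomes, which connect to keratin filaments, while pairs with beta 1 bind laminin, collagen or fibronectin and connect to actin. The receptors with alpha v bind ligands that carry an arginine-glycine-aspartate motif, such as vitronectin and latent TGF beta. In normal liver, hepatocytes lack a continuous basement membrane, and bile duct cells rest on one that contains laminin.

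The promoters of 4 genes are shown because the results turn on them: Itga2 and Itga1, which lie next to each other and moved in opposite directions, Itgb1, the most abundant subunit, and Lamb3, the most abundant laminin chain. Each run holds the 250 bases before the RefSeq start of the gene in GRCm38.p6, 5′ to 3′ on the strand of the gene, and capitals mark a match to GGGCGG, the letters that SP and KLF factors are known to bind, or to GGAATG, those of TEAD factors. The windows are chr13:114932101-114932350 (minus strand) for Itga2, chr13:115101965-115102214 (minus strand) for Itga1, chr8:128685404-128685653 (plus strand) for Itgb1 and chr1:193301744-193301993 (plus strand) for Lamb3. The Lamb3 window lies inside the span listed for this gene with its values (193207699 to 193343878), and not before the start of that span.
Itga2: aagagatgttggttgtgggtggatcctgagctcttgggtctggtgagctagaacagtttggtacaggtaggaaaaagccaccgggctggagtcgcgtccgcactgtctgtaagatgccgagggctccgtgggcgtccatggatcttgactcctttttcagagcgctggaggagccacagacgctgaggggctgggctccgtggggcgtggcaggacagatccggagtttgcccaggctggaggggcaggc
Itga1: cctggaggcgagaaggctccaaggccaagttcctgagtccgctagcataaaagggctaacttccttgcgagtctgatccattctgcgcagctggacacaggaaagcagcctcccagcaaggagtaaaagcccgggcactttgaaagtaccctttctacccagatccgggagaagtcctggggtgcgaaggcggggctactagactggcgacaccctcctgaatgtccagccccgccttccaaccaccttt
Itgb1: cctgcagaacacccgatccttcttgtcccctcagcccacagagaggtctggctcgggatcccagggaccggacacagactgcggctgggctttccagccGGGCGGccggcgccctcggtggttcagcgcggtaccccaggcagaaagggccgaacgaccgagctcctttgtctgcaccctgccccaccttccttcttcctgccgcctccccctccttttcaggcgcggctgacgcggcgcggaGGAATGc
Lamb3: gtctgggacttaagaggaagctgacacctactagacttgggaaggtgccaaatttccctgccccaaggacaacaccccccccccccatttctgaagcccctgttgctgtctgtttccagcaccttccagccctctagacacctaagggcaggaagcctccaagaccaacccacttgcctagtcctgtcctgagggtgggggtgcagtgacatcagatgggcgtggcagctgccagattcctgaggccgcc
The Itga2, Itga1 and Lamb3 windows shown have none of the letters searched, and the Itgb1 window has GGGCGG from base -151 and GGAATG from base -7, counted back from the start.

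A promoter entry was found for 21 of the 33 genes (24 windows, since Itga3, Itgb6 and Lamb3 have more than 1 start). Those without a matched entry include Itga6, Itga7, Itgad, Itgae, Itgal, Itgb2, Itgb3, Itgb4, Lama3, Lamc1 and Lamc3. In both orientations, GGGCGG was in the windows of 7 genes (Itga3, Itga5, Itgam, Itgb1, Itgb5, Lama5 and Lamb1) and in 32.7% of all 32851 promoter windows of this length. GGAATG was in those of Itga10, Itgb1 and Lamb3 (its other start), and in 12.6% of all windows. The AP-1 motif TGANTCA was in that of Itgax, against 6.75% of all windows. The EGR motif GCGNGGGCG was in those of Itga11 and Lamb1, against 4.7% of all windows, and in Lamb1 it shared bases with GGGCGG. A match is a description of the letters in the window and not evidence of binding.

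Setdb1 had 8.41, 8.54 and 9.43 FPKM in siNC and 4.29, 4.21 and 3.29 FPKM in siSetdb1, with no overlap between the groups (log2 fold change -1.0, limma adjusted p = 0.00183). The recovered depth was 16790582 to 17835060 reads per library. On the first 2 principal components of all tested genes, siNC replicate 1 lay at -26.7 and 15.0, against -11.7 and -10.8 on the first and -10.7 and -14.0 on the second for the other siNC libraries, so results are also given without it. The hepatocyte label was only partly met by marker levels: Hnf4a, a hepatocyte transcription factor, had 27.1 to 38.1 FPKM, Alb, the albumin gene, only 1.45 to 14.3 FPKM, and Krt19, a keratin of bile ducts, 1204 to 1444 FPKM. The 5 biliary markers in the table summed to 1611 to 1792 FPKM in siNC and 1604 to 1784 FPKM in siSetdb1, mostly Krt19, which was not called (adjusted p = 0.691). Of the other biliary markers, the keratin gene Krt7 and the transcription factor gene Sox9 rose by 0.50 and 0.78 on the log2 scale (adjusted p = 0.00827 and 0.0068), Spp1 fell by 0.92 (adjusted p = 0.00689), and Cftr had at most 0.0075 FPKM. The 8 hepatocyte markers in the table summed to 93.3 to 141 FPKM in siNC and 49.0 to 74.2 FPKM in siSetdb1, with 2 of the 6 tested called lower, and the part of these marker differences in the results below was not tested. The endothelial markers summed to at most 0.193 FPKM and those of fibroblasts and stellate cells to at most 1.36 FPKM in any library. Whether replicates were grown separately is not stated in the labels. Each p-value sets the difference between the groups only against the spread of these samples, and that spread may be technical.

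Of the 22 tested genes, 12 were called, of which 8 were higher and 4 lower in siSetdb1, and 10 did not pass (limma with Benjamini-Hochberg adjustment over all genes, threshold 0.05). Among all 12846 genes tested, 15.1% were called, 6.87% higher and 8.27% lower. This balance turned round under median-ratio scaling, with 997 genes higher and 847 lower, under which 8 members were again called higher and 4 lower. Those that rose included Itga2, Itga3, Itga6, Itgav, Itgb1, Itgb4 and Lamb3, and those that fell were Itga1, Itga7, Itgb2 and Itgb3. The groups did not overlap for 14 of the 22, the 12 called genes and Itgb7 and Lamb2, against 39.2% of all tested genes. Of the 11 untested genes, Itgad (3 to 12 reads per library), Itgae and Lama3 also did not overlap. The share over all untested genes was not taken, so nothing about the members is read from this. When genes of all levels were tested, the adjusted p was 0.179 for Lama3 and higher for the other untested genes. The median log2 fold change was 0.03 for the 22 genes and -0.02 for all genes. The genes that rose had means of 12.6 to 165 FPKM in siNC and those that fell had 1.46 to 11.1 FPKM. Without siNC replicate 1 the same 12 genes were called, in the same directions.

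**Figure D1:**
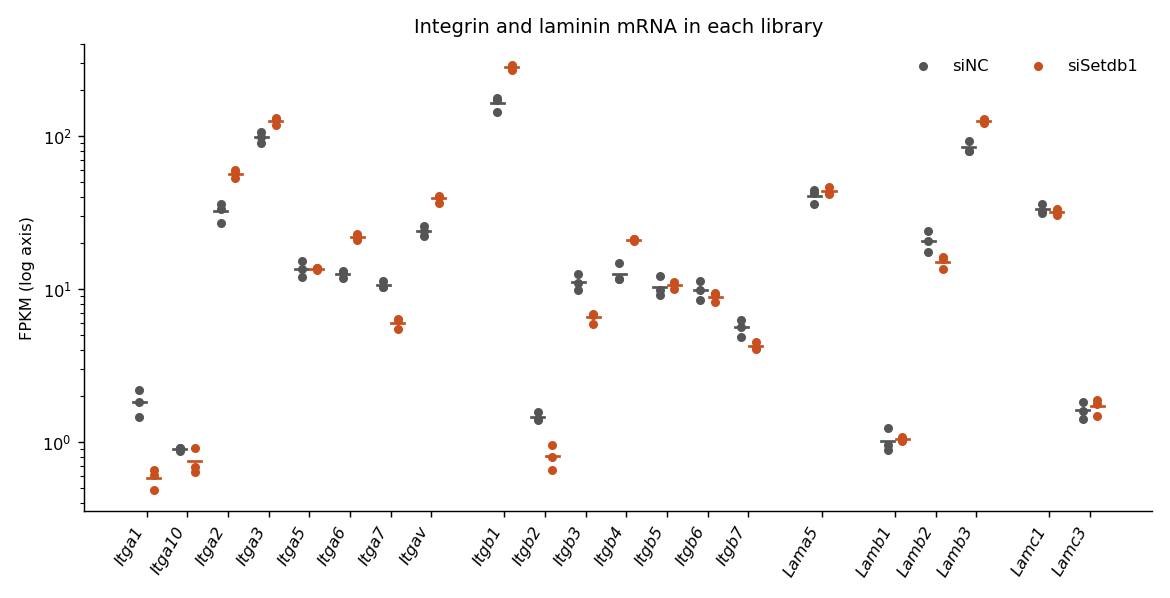
FPKM (log axis) of 21 tested integrin and laminin genes in each of 3 siNC (grey) and 3 siSetdb1 (orange) libraries; points are libraries and lines are group means. Itgb1, Itga3 and Lamb3 are the most abundant genes, and the siSetdb1 points of Itga2, Itga6, Itgav, Itgb1, Itgb4 and Lamb3 lie above each siNC point.

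The beta 1 subunit, which pairs with more alpha subunits than any other and is required for most collagen, laminin and fibronectin receptors, was the most abundant integrin mRNA and rose. Itgb1 (ENSMUSG00000025809, mm10 chromosome 8, 128685654 to 128733200) had 144, 178 and 173 FPKM in siNC and 272, 291 and 285 FPKM in siSetdb1, from 9868 to 20713 reads per library. Each siSetdb1 library lay above each siNC library, with siNC replicate 1 the lowest of all. The log2 fold change on the log2(FPKM + 1) scale was 0.78 (SE 0.09, adjusted p = 0.00306), and it was 0.68 without siNC replicate 1. Itgb1 made up 76.2% ± 3.5 of the summed FPKM of the beta genes in siNC and 84.4% ± 0.6 in siSetdb1 (SD, n = 3). The sum of the beta genes was 200 to 227 FPKM in siNC and 325 to 342 FPKM in siSetdb1.

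Among the alpha partners of beta 1 that bind laminin, Itga6 and Itga3 rose and Itga7 fell. Itga6 (chromosome 2, 71745616 to 71858416), whose product also pairs with beta 4, had 11.9, 13.2 and 12.8 FPKM in siNC and 21.0, 23.0 and 21.9 FPKM in siSetdb1. All of its siSetdb1 values lay well above the siNC values, and the log2 fold change was 0.76 (SE 0.07, adjusted p = 0.00151). Itga3 (chromosome 11, 95044474 to 95076801), the most abundant alpha gene, had 106, 90.1 and 98.8 FPKM in siNC and 119, 129 and 131 FPKM in siSetdb1. Its groups did not overlap, but its change was smaller, at 0.36 (SE 0.08, adjusted p = 0.0283). The Itga3 call was lost without siNC replicate 2 or 3 (adjusted p = 0.0801 and 0.0581) and without siSetdb1 replicate 1, 2 or 3 (adjusted p = 0.0657, 0.103 and 0.0894). It was also lost when genes of all levels were tested (adjusted p = 0.0753).

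Itga7 (chromosome 10, 128933818 to 128958282), known as the main laminin-binding alpha subunit of muscle, had 11.2, 10.3 and 10.3 FPKM in siNC and 6.37, 5.51 and 6.25 FPKM in siSetdb1. The values of each group lay close together and the groups were far apart (log2 fold change -0.72, SE 0.08, adjusted p = 0.00228). In siNC, Itga6 and Itga7 were at nearly equal levels, with 1.05, 1.28 and 1.25 times as much Itga6 as Itga7, and in siSetdb1 this ratio was 3.30, 4.18 and 3.51. With 3 libraries against 3, an exact two-sided permutation test cannot give a p below 0.1, so this ratio and the others below are given without a test. A ratio of a gene higher in each siSetdb1 library to a gene lower in each must differ between the groups. Such a ratio is a description and adds no separate evidence.

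The collagen receptors moved apart. Itga2 (ENSMUSG00000015533, chromosome 13, 114833081 to 114932100), whose product with beta 1 binds collagen and also laminin in epithelia, had 27.1, 33.6 and 36.1 FPKM in siNC and 59.8, 57.3 and 53.6 FPKM in siSetdb1. The groups did not overlap, and siNC replicate 1 was again the lowest library (log2 fold change 0.81, SE 0.11, adjusted p = 0.00472, and 0.69 without that library). Itga1 (ENSMUSG00000042284, chromosome 13, 114953096 to 115101964), whose product with beta 1 binds type IV collagen, had 1.45, 1.82 and 2.203 FPKM in siNC and 0.607, 0.485 and 0.657 FPKM in siSetdb1. Each siSetdb1 value was below each siNC value (log2 fold change -0.83, SE 0.12, adjusted p = 0.00597), and the ratio of the means was 0.32. At this low level the added 1 FPKM compresses the change, which was -1.63 on the log2 scale of recovered reads (limma-voom, 154 to 704 reads per library). Exons of Itga1 share 3.68% of their bases with Gm49395 on the same strand, which had at most 18 reads in a library.

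Itga1 and Itga2 are neighbours on the same strand, 21.0 kb apart. The ratio of Itga2 to Itga1 was 18.7, 18.5 and 16.4 in siNC and 98.5, 118 and 81.6 in siSetdb1. Itga10, a collagen-binding subunit best known from cartilage, had 0.873 to 0.920 FPKM in siNC and 0.636 to 0.919 FPKM in siSetdb1, and these overlap (adjusted p = 0.411). For Itga10, 33.5% of the exon bases also belong to Gm42957 on the same strand, so its level is uncertain. Itga11, the remaining collagen-binding subunit, had at most 6 reads in a library and was not tested.

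Itgav rose, while of the beta genes with a row whose products pair with alpha v, Itgb1 rose, Itgb3 fell, and Itgb5 and Itgb6 were not called. Itgb8, the gene of another partner of alpha v, had no row. Itgav (chromosome 2, 83724397 to 83806916) had 22.1, 24.0 and 26.0 FPKM in siNC and 40.7, 40.1 and 36.6 FPKM in siSetdb1. The siSetdb1 values were all above the siNC values (log2 fold change 0.68, SE 0.08, adjusted p = 0.00312). Itgb3 (chromosome 11, 104608000 to 104670476), whose product pairs with alpha v and, in platelets, with the subunit encoded by Itga2b, had 12.5, 10.9 and 9.92 FPKM in siNC and 6.82, 5.92 and 6.87 FPKM in siSetdb1. It was lower in each siSetdb1 library (log2 fold change -0.68, SE 0.10, adjusted p = 0.00582), and Itgav was 1.77 to 2.62 times Itgb3 in siNC and 5.32 to 6.78 times in siSetdb1. Itga2b had at most 22 reads in a library, and the 3 platelet markers in the table summed to 0.268 to 0.624 FPKM in siNC and 0.195 to 0.734 FPKM in siSetdb1, which overlap.

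Itgb5, a vitronectin receptor subunit, had 9.14 to 12.2 FPKM in siNC and 10.04 to 11.05 FPKM in siSetdb1 (log2 fold change 0.04, adjusted p = 0.812). Itgb6, an epithelial subunit known for activating latent TGF beta, had 8.43 to 11.3 and 8.25 to 9.42 FPKM (log2 fold change -0.12, adjusted p = 0.464). Itga5, the alpha subunit of the main fibronectin receptor with beta 1, had 11.95 to 15.3 FPKM in siNC and 13.4 to 13.8 FPKM in siSetdb1 (log2 fold change 0.01, SE 0.09, adjusted p = 0.95). In all 3 genes the siSetdb1 values lay inside or across the siNC range.

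**Figure D2:**
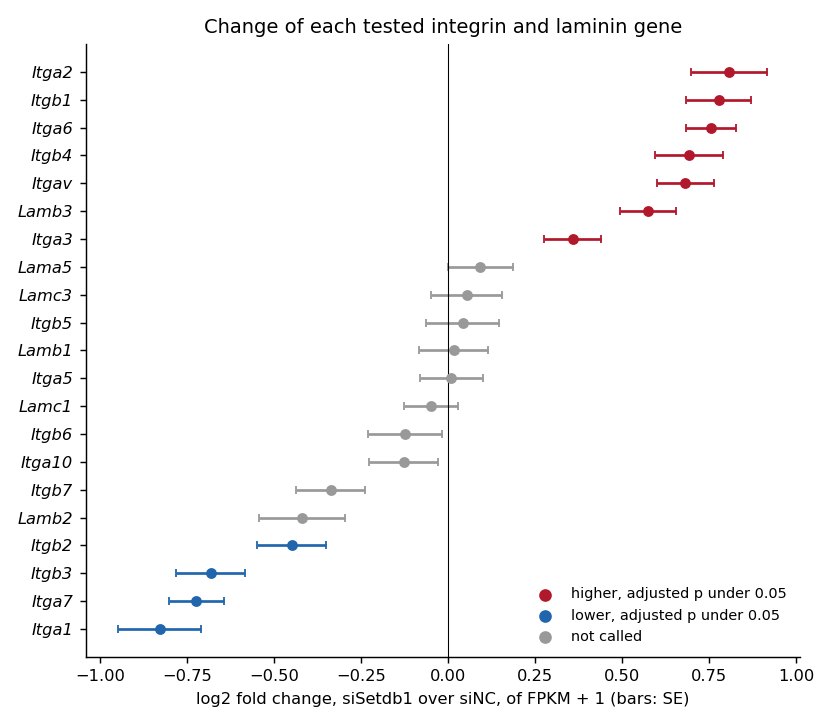
Log2 fold change of FPKM + 1, siSetdb1 over siNC, with its SE, for 21 tested genes (limma, n = 3 libraries a group); red and blue mark genes called higher and lower. Values run from -0.83 for Itga1 to 0.81 for Itga2, its neighbour on chromosome 13.

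The hemidesmosome subunit Itgb4 rose with its only alpha partner, Itga6. Itgb4 (chromosome 11, 115974709 to 116008412) had 14.8, 11.6 and 11.6 FPKM in siNC and 21.1, 21.2 and 20.5 FPKM in siSetdb1. The siSetdb1 libraries lay close together and above all siNC libraries, of which replicate 1 was the highest (log2 fold change 0.69, SE 0.10, adjusted p = 0.00565, and 0.80 without siNC replicate 1). The ratio of Itga6 to Itgb4 stayed near 1, at 0.803 to 1.14 in siNC and 0.997 to 1.09 in siSetdb1. Plec, the gene of plectin, which ties integrin beta 4 to keratin, was among the other hemidesmosome genes and rose, with a mean of 31.2 ± 2.4 FPKM in siNC and 42.8 ± 0.3 FPKM in siSetdb1 (change of 0.45 on the log2 scale, adjusted p = 0.00878). Dst, a second plakin of hemidesmosomes, had an adjusted p of 0.0776, and Col17a1 and Krt5 were too low to test. The basal keratin gene Krt14 rose from 0.75 ± 0.26 to 1.76 ± 0.35 FPKM (adjusted p = 0.0226). The Krt14 call did not hold when siNC replicate 3 was left out (adjusted p = 0.0551), nor when siSetdb1 replicate 1 (0.0648) or 2 (0.0805) was. The 4 keratinocyte markers, of which Krt5 had at most 0.051 FPKM, summed to 0.602 to 1.07 FPKM in siNC and 1.66 to 2.23 FPKM in siSetdb1, and the part of such cells in the Itgb4 and Lamb3 values was not tested.

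The integrin genes known from leukocytes were low. Itgb2 (chromosome 10, 77530252 to 77565708), the shared beta subunit of leukocyte integrins, had 1.41, 1.58 and 1.39 FPKM in siNC and 0.797, 0.960 and 0.661 FPKM in siSetdb1, from 36 to 84 reads per library. It was lower in each siSetdb1 library (log2 fold change -0.45, SE 0.10, adjusted p = 0.0249). The call was lost without siNC replicate 2 and siSetdb1 replicates 1 and 3 (adjusted p = 0.0762, 0.0919 and 0.0792), as it was when genes of all levels were tested (adjusted p = 0.0596). Its alpha partners Itgal, Itgam, Itgax and Itgad had 0 to 0.156 FPKM and at most 12 reads in a library. For Itgam, 68.7% of the exon bases also belong to Gm49368 on the same strand, so its level is uncertain. Of the 8 listed leukocyte markers, 6 were in the table and summed to 4.26 to 6.34 FPKM in siNC and 2.18 to 3.12 FPKM in siSetdb1. Nearly all of this sum was Cd68, a lysosomal gene of macrophages, which fell by 0.84 on the log2 scale (adjusted p = 0.012), while Ptprc, the pan-leukocyte gene, had at most 0.00959 FPKM, and Cd3e at most 0.0428 FPKM. The part of leukocyte RNA in the Itgb2 value was not tested. In bulk RNA, fewer cells of a type and less RNA per cell cannot be told apart.

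Itgb7, whose product pairs with alpha 4 or alpha E on lymphocytes, had 6.32, 5.68 and 4.83 FPKM in siNC and 4.03, 4.12 and 4.49 FPKM in siSetdb1. The groups did not overlap but the gene did not pass (log2 fold change -0.34, SE 0.10, adjusted p = 0.0572). It was called without siNC replicate 3 (adjusted p = 0.0347). Its partner Itgae had 0.286 to 0.407 FPKM in siNC and 0.184 to 0.253 FPKM in siSetdb1, below the limit for the test. Itga9 and Itgb2l had at most 1 read in a library.

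Among the laminin beta chains, Lamb3 rose and Lamb2 and Lamb1 were not called. Lamb3 (ENSMUSG00000026639, chromosome 1, 193207699 to 193343878) encodes the beta chain that is known from the laminin of hemidesmosomes, and had 93.5, 80.2 and 79.3 FPKM in siNC and 127, 122 and 129 FPKM in siSetdb1. Each siSetdb1 library was above each siNC library (log2 fold change 0.57, SE 0.08, adjusted p = 0.00548), with 9010 to 15155 reads per library. Lamb2, the beta chain of several laminins of mature basement membranes, had 23.9, 17.4 and 20.8 FPKM in siNC and 16.2, 13.4 and 15.8 FPKM in siSetdb1. The Lamb2 values did not overlap and it did not pass (log2 fold change -0.42, SE 0.12, adjusted p = 0.058), but it was called without siNC replicate 2 (adjusted p = 0.0358). Lamb1, the widely expressed beta chain of the embryo, had 0.881 to 1.23 FPKM in siNC and 1.02 to 1.08 FPKM in siSetdb1 (adjusted p = 0.927).

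Lamb3 and Lamb2 made up nearly all of the beta chain mRNA, and their ratio was 3.91, 4.62 and 3.82 in siNC and 7.84, 9.06 and 8.16 in siSetdb1. Lamb3 made up 79.6% ± 1.7 of summed laminin beta FPKM in siNC and 88.6% ± 0.7 in siSetdb1 (SD, n = 3). The sum itself was 98.4 to 118 FPKM in siNC and 136 to 145 FPKM in siSetdb1, again without overlap.

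Lamc1, the gamma chain of most laminins, had 36.2, 31.5 and 32.2 FPKM in siNC and 33.3, 30.5 and 32.6 FPKM in siSetdb1. These ranges overlap, and the gene was not called (log2 fold change -0.05, SE 0.08, adjusted p = 0.698). Lamc3, a gamma chain of more restricted expression, had 1.41 to 1.83 FPKM in siNC and 1.49 to 1.87 FPKM in siSetdb1 (adjusted p = 0.746).

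Among the 3 laminin alpha genes with a row, Lama2, Lama3 and Lama5, the mRNA was almost all Lama5, which was not called. Lama5 encodes the alpha chain of the laminins found in most adult epithelial basement membranes and had 42.3, 35.9 and 44.3 FPKM in siNC and 46.5, 42.3 and 41.7 FPKM in siSetdb1 (log2 fold change 0.09, SE 0.09, adjusted p = 0.519). Lama5 made up 98.7% to 99.6% of the summed FPKM of these 3 genes in all 6 libraries. Lama3, the alpha chain that joins Lamb3 in the laminin of hemidesmosomes, had 0.205, 0.150 and 0.265 FPKM in siNC and 0.361, 0.382 and 0.537 FPKM in siSetdb1, from 28 to 103 reads per library. The groups did not overlap, but Lama3 was below the limit for the test, and with no filter its adjusted p was 0.179. Lamb3 was 299 to 536 times Lama3 in siNC and 239 to 352 times in siSetdb1. Lama2, the alpha chain of muscle basement membranes, had at most 7 reads in a library.

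**Figure D3:**
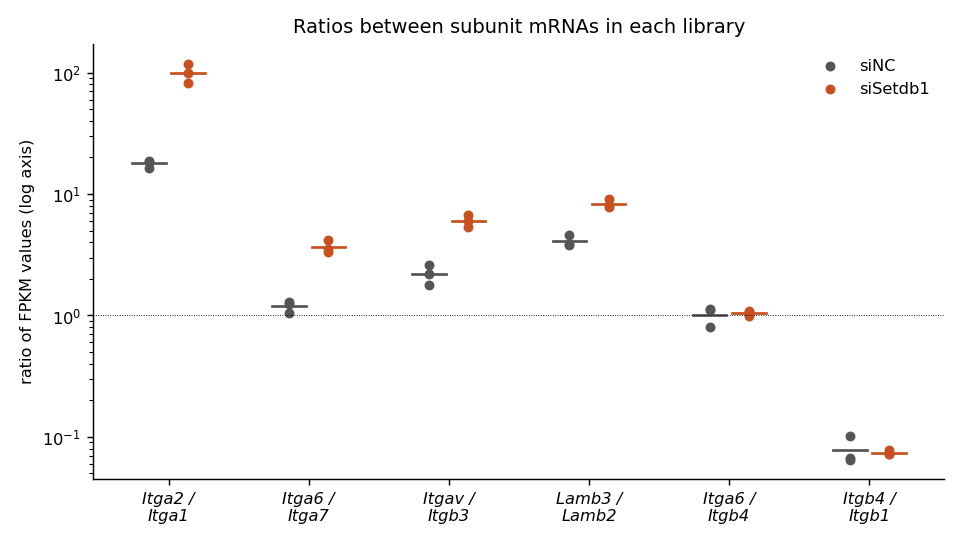
Ratios of FPKM values (log axis) between subunit mRNAs in each of 3 siNC (grey) and 3 siSetdb1 (orange) libraries; lines are group means and the dotted line is a ratio of 1. The groups do not overlap for Itga2 over Itga1, Itga6 over Itga7, Itgav over Itgb3 and Lamb3 over Lamb2, and overlap for Itga6 over Itgb4 and Itgb4 over Itgb1. In each ratio without overlap, the first gene was higher and the second lower in each siSetdb1 library, so the outcome was fixed by these values.

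Reads in the 33 genes made up 0.392%, 0.3745% and 0.3945% of all reads in siNC and 0.519%, 0.517% and 0.517% in siSetdb1. GC content was taken from the longest transcript of each gene and length from its merged exons. Over all tested genes the log2 fold change went with both (Spearman's rho -0.27 and 0.209 across 12832 genes, which are not independent replicates). The rho values were -0.0524 and 0.144 when siNC replicate 1 was left out. The median GC content was 50.8% for the 8 members that rose, 52.6% for the 4 that fell and 57.1% for the 10 not called, and the median exon lengths were 7074, 6996 and 6086 bases. With such trends removed within each library, an alternative chosen after the data had been seen, 14 members were called, 8 higher and 6 lower, and 22% of all genes were called, against 15.1%.

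Of 91 other genes of cell adhesion and basement membranes in the table, 68 were tested, and 18 of these (26.5%) were called, 12 higher and 6 lower, beside 15.1% of all genes. Their median log2 fold change was 0.03. With 1 library left out, the share called was 17.6% without siNC replicate 2 (8.25% of all genes), 16.2% without siNC replicate 3 (10.9%) and 33.8% without siNC replicate 1 (16.9%). It was 10.3% without siSetdb1 replicate 1 or 2 (5.36% and 5.32% of all genes) and 11.8% without siSetdb1 replicate 3 (7.61%). With all genes of the table tested, 11.8% of the 68 and 3.5% of all genes were called. Of the 18, 6 were called without each of the 6 libraries in turn. The matching count over all called genes was not taken, so nothing about the list is read from this.

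Of 20 tested genes of cytoplasmic adaptors, which link integrin tails to the cytoskeleton, 3 rose and 1 fell (20% called, beside 15.1% of all genes). Tln1, the gene of talin, which activates integrins, had 28.9 ± 3.4 FPKM in siNC and 27.6 ± 1.2 FPKM in siSetdb1 and was not called (adjusted p = 0.691). Fermt1, the epithelial kindlin gene, fell, with 9.29 ± 1.07 FPKM in siNC and 6.27 ± 0.50 FPKM in siSetdb1 (change of -0.50 on the log2 scale, adjusted p = 0.0162). This call was lost when siSetdb1 replicate 1 (adjusted p = 0.0733) or 3 (0.0531) was left out. Lims2 and Flna, the latter the gene of a filamin that crosslinks actin, rose by 0.36 and 0.29 on the log2 scale, and the kinase gene Ptk2, which encodes focal adhesion kinase, by 0.30 (adjusted p = 0.03). The GTPase gene Rap1b, the 1 of 13 regulators that was called (7.69%, beside 15.1% of all genes), rose by 0.24. Without any 1 of the libraries other than siNC replicate 1, the adjusted p of these 4 genes was 0.0543 to 0.146.

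Of 8 tested basement membrane partners of laminin, 1 was called (12.5%, beside 15.1% of all genes). An unadjusted limma p under 0.05 was found for 3 of the 8, and for 4141 of all 12846 genes tested. The called gene was Npnt, the gene of nephronectin, a basement membrane ligand of integrin alpha 8 with beta 1. It rose, with 47.8 ± 1.3 FPKM in siNC and 62.7 ± 2.5 FPKM in siSetdb1 (change of 0.38 on the log2 scale, adjusted p = 0.00948, and 0.0502 when siSetdb1 replicate 2 was left out). The 6 tested laminin receptors and related proteins outside the integrin family had adjusted p-values from 0.0577 for Bcam, which encodes a receptor for laminin alpha 5, to 0.731 for Dag1, the dystroglycan gene. Of these 6 genes, 4 had an unadjusted p under 0.05, beside the same 4141 of 12846 genes. When siNC replicate 1 was left out, the syndecan genes Sdc1, Sdc2 and Sdc4 were called (adjusted p = 0.0254, 0.0285 and 0.0474), with log2 fold changes over all libraries of 0.36, -0.36 and 0.20. Bcam was called when siNC replicate 2 was left out (adjusted p = 0.0472).

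Of 13 tested genes listed as matrix and cell-surface ligands of integrins other than laminin, or related to these, 4 rose and 5 fell (69.2% called, beside 15.1% of all genes). The list was chosen with earlier results of these data known. Ccn2 and Lrrc32, given below, were not the only calls lost when 1 library was left out. Jam2, a junctional adhesion molecule, rose, with 2.31 ± 0.25 FPKM in siNC and 6.66 ± 0.45 FPKM in siSetdb1 (change of 1.21 on the log2 scale, adjusted p = 0.000882). Thbs1, the thrombospondin 1 gene, rose from 5.21 ± 0.98 to 9.10 ± 0.71 FPKM (adjusted p = 0.0113). Ccn2, a matricellular ligand, rose by 0.37 (adjusted p = 0.0467), a call that was lost when any 1 library except siNC replicate 3 was left out (adjusted p = 0.0504 to 0.145). Spp1, the osteopontin gene, fell, with 220 ± 42 FPKM in siNC and 115 ± 6 FPKM in siSetdb1 (change of -0.92 on the log2 scale, adjusted p = 0.00689), and Vcam1, a ligand of the alpha 4 receptors, fell by 1.02. Lrrc32, a related gene whose product holds latent TGF beta at the cell surface, fell from 0.954 ± 0.393 to 0.211 ± 0.076 FPKM (adjusted p = 0.0325). Its adjusted p was 0.0639 to 0.11 without any 1 library other than siNC replicate 2. Fn1, the fibronectin gene, was not called (adjusted p = 0.124).

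**Figure D4:**
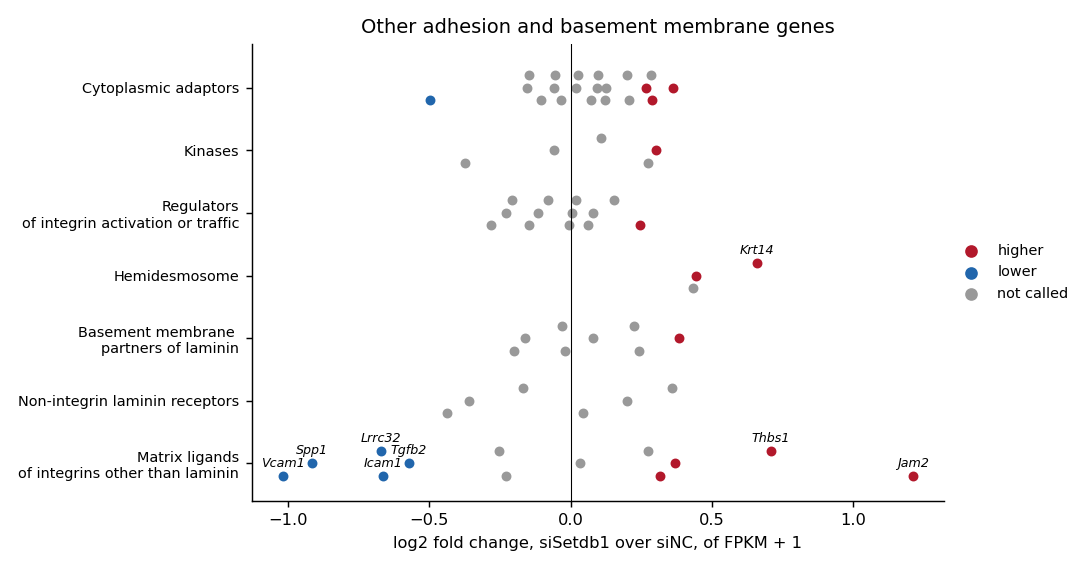
Log2 fold change of FPKM + 1, siSetdb1 over siNC, of 68 tested adhesion and basement membrane genes, grouped by role; red and blue mark the 12 genes called higher and the 6 called lower, and called genes with a change of at least 0.5 in size are named. Values run from -1.02 for Vcam1 to 1.21 for Jam2, both integrin ligands, and the 6 laminin receptors from -0.44 for Bcam to 0.36 for Sdc1.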

How the data were processed

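Polyadenylated RNA of 3 siNC and 3 siSetdb1 samples was read as single-end reads of 50 bases, per the labels' protocols, which name no step that marks strand. Per the submitters' processing notes, the build was mm10 and the tools included RSEM 1.2.12, HISAT2 2.0.4, DESeq2 1.4.5 and Bowtie2 2.2.5, with no role or order given. The deposited table names no unit. Its values were taken as FPKM made by the authors, because with GENCODE M21 exon lengths (found for 25372 of 25416 gene IDs) 98.8% of genes gave whole reads within 0.01 in all libraries. The same steps gave the depth per library.

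Samples were grouped by title. The 12846 genes that reached 0.5 FPKM in 3 libraries were fitted with limma 3.58.1 in R 4.3.3 on log2(FPKM + 1), with a robust prior variance that follows the mean and no term besides group. Two-sided p-values were adjusted by the Benjamini-Hochberg method over all of these genes, with a threshold of 0.05. The fit was also run on simulated reads that had no library set apart and no trend with GC content or length. That run does not show how the fit behaves where these are present, as they are here. Fold changes on this scale understate those of low genes, and FPKM falls when a few abundant genes gain reads. Reads of overlapping or similar genes depend on the authors' counting, which is not given in the sources used here. The members and lists were chosen with earlier results of these data known. Members are named, and of the adhesion list, by role, at most the 3 called genes with the largest change in each direction, with some genes that were not called and were chosen after their values were seen. Alternatives were other pseudocounts, filters, scalings and variance trends, limma-voom on recovered reads, a replicate block and leaving out each library. Of the tested genes, 1 member and 1 gene of the adhesion list enter the counts but are not reported here by name. Promoter sequences are from RefSeq (GRCm38.p6) and were matched by symbol.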

Additional observations from a re-analysis of the deposited data

How the results depend on the processing

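The 12 called integrin and laminin genes kept their direction under all 14 alternatives, and the number called was 9 to 14. Itga3 and Itgb2 were among those that lost the call with no filter on low values and with the replicate block (adjusted p = 0.0755 and 0.0546 with the block). Lamb2 was called with limma-voom (adjusted p = 0.0348), with the variance trend on reads (0.0372), with the block (0.0373) and with GC and length trends removed (0.0204), and Itgb7 with the variance trend on reads (0.0434) and with these trends removed (0.0415). Leaving out 1 library, the number of members called was 9 to 12, of the adhesion list 7 to 23 and of all genes 683 to 2176. With no filter the adhesion list had 8 calls and all genes 890, and with the replicate block 11 and 1015, against 18 and 1945. Over all genes, calls were also more often higher than lower with no filter (460 and 430) and without siNC replicate 1 (1101 and 1075), siSetdb1 replicate 1 (363 and 326) or siSetdb1 replicate 2 (355 and 328). The cause of these moves was not tested. Deviations from the group means of same-numbered libraries correlated at -0.157, 0.167 and -0.172 across genes, and those of other pairs at -0.204 to 0.283. The values show no sign that replicate numbers pair the samples. They cannot exclude it, because deviations within so small a group depend on each other. Uncalled genes near 0 changed sign. These were Itga5 and Lamc3 without siNC replicate 2, Itgb5 without siNC replicate 3, Lamb1 without siNC replicate 1 (-0.0040) or 2, and Lamc1 without siNC replicate 1. Over the 6 libraries left out in turn, log2 fold changes ran from -0.072 to 0.092 for Itga5, -0.035 to 0.153 for Itgb5, -0.034 to 0.088 for Lamb1, -0.086 to 0.012 for Lamc1 and -0.0035 to 0.115 for Lamc3. Genes with few reads, such as Lama3, limit what a change below the filter can show.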

Other observations

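Ilk, the gene of integrin-linked kinase, an adaptor found at most integrin adhesions, was listed at 0.0217, 0.0209 and 0.0212 FPKM in siNC and at 0.0211, 0.0427 and 0.102 FPKM in siSetdb1, while its binding partners Parva and Lims1 had 27.7 ± 0.5 and 45.5 ± 4.0 FPKM in siSetdb1. Its low listing in both groups is given as a value of the deposited table.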
